A study of Mus musculus with 6 samples.

Results

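Scavenger receptors and C-type lectin receptors of macrophages were examined in the RNA-seq libraries of control and PGAM5 KD iBMDMs, which were all treated with LPS (100 ng/ml) for 4 hours. The members were 10 genes taken by their symbol in the GENCODE M21 annotation of GRCm38, out of 54532 genes listed. They were Msr1, Cd36, Scarb1, Olr1 and Marco among the scavenger receptors, and Clec5a, Clec4e, Clec4d, Clec4n and Clec7a among the C-type lectin receptors. iBMDMs are a mouse line of bone marrow-derived macrophages, immortalized by retroviral transfer of v-raf and v-myc. Control cells carried a control shRNA and PGAM5 KD cells an shRNA against Pgam5, a phosphatase of the mitochondrial outer membrane, and each group had 3 libraries. Any difference between the lines other than the knockdown cannot be told apart from it. No untreated cells were among the samples, so that both lines are compared after LPS and an induction by LPS was not measured. The labels do not say whether replicates were separate cultures or infections, or whether a line came from 1 clone, so that p-values measure only the spread between these libraries.

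Scavenger receptors are surface proteins through which macrophages bind and take up modified lipoproteins, lipids, dying cells and microbes. C-type lectin receptors share an extracellular fold that in many of them binds sugars or glycolipids of fungi, mycobacteria and damaged cells. Several of these lectins have no signaling tail of their own and pair with small adaptor proteins that carry an activation motif, encoded by Fcer1g or Tyrobp, from which the kinase Syk and the Card9, Bcl10 and Malt1 complex pass the signal to NF-κB. Macrophages express both families, and LPS is known to change many of their members.

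The libraries held between 18163462 and 24388914 fragments, as recovered from the deposited FPKM (fragments of a gene divided by its exon length and by the depth of the library). Control libraries had 17.1, 13.0 and 13.4 FPKM of Pgam5 and PGAM5 KD libraries 4.33, 5.75 and 4.53 FPKM (log2 fold change -1.40, standard error 0.13, limma adjusted p = 0.000358). Gm26718, a lincRNA gene on the opposite strand that overlaps exons of Pgam5, was at 0. Of 10 macrophage markers, 9 had a mean of at least 1 FPKM and Mertk was at 0 in every library. The markers of this list summed to between 2987 and 3073 FPKM in control and between 2700.1 and 2729 FPKM in PGAM5 KD libraries. Adgre1, Cd14, Fcgr1 and Itgam passed the limma test as higher in PGAM5 KD cells and Csf1r, Lyz2 and Cd68 as lower, and the part of this shift in the results below was not tested. The lists of neutrophil, dendritic cell, fibroblast, lymphocyte and endothelial markers each summed to at most 0.663 FPKM in any library. At 0 in every library were 5 of 8 neutrophil, 3 of 7 dendritic cell, 4 of 7 fibroblast, 5 of 8 lymphocyte and 1 of 6 endothelial markers, with Ly6g, Flt3, Col1a2, Cd3e and Emcn among them. Xcr1 and Zbtb46 of the dendritic cell list, Pdgfrb of the fibroblast list and Cdh5, Pecam1 and Vwf of the endothelial list were above 0 in every library. The endothelial list summed to between 0.404 and 0.601 FPKM in control and between 0.285 and 0.475 FPKM in PGAM5 KD libraries. The ranges for control and PGAM5 KD libraries were 0 to 0.232 and 0.145 to 0.568 FPKM for the neutrophil list, 0.328 to 0.543 and 0.494 to 0.663 FPKM for the dendritic cell list, 0.111 to 0.199 and 0.157 to 0.258 FPKM for the fibroblast list, and 0.0378 to 0.283 and 0.0769 to 0.221 FPKM for the lymphocyte list. As these are bulk libraries, fewer cells with a transcript and less of it per cell cannot be told apart.

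The members covered a wide range of levels. In control cells Clec4d was highest with a mean of 101 FPKM, followed by Clec4e (47.2 FPKM), Clec5a (42.9 FPKM), Msr1 (11.6 FPKM), Scarb1 (10.7 FPKM) and Cd36 (7.14 FPKM). Clec4n, Clec7a, Olr1 and Marco had means of 0.899, 0.401, 0.378 and 0.0477 FPKM. Msr1 and Scarb1 overlapped between libraries in control cells, as did Clec4n with Clec7a and Clec7a with Olr1, while the other neighbours in this order were apart. In PGAM5 KD cells Clec5a stood above Clec4e, at 58.9 against 35.6 FPKM, and Msr1, at 24.9 FPKM, was clear of Scarb1, at 10.6 FPKM. Of the 10 genes, 6 reached a mean of 1 FPKM over all libraries and were tested with limma on log2(FPKM + 1) among 10540 genes. At an adjusted p-value under 0.05, Msr1, Clec5a and Cd36 were higher and Clec4e and Clec4d were lower in PGAM5 KD cells. That is 3 of 6 higher where 16.8% of all genes tested were higher, and 2 of 6 lower where 14.9% were lower. Scaled to TPM, the same 3 and 2 members passed, against 10.3% higher and 21.7% lower among all genes. The libraries of both groups did not overlap for 5 of the 6 genes, against 47.1% of all genes tested. The libraries were higher in PGAM5 KD cells for 3 of them, against 24.2% of genes, and lower for 2, against 22.9%. With the additional threshold of an absolute log2 fold change above 1, as in the methods of the study, Msr1 was the 1 tested member called, where 1.32% of genes were called and 0.787% were called as higher. Of all genes tested 31.7% passed the adjusted p-value in either direction, against 5 of the 6 members, and the median log2 fold change of these 6 was 0.15 against 0.013 for all genes.

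**Figure D1:**
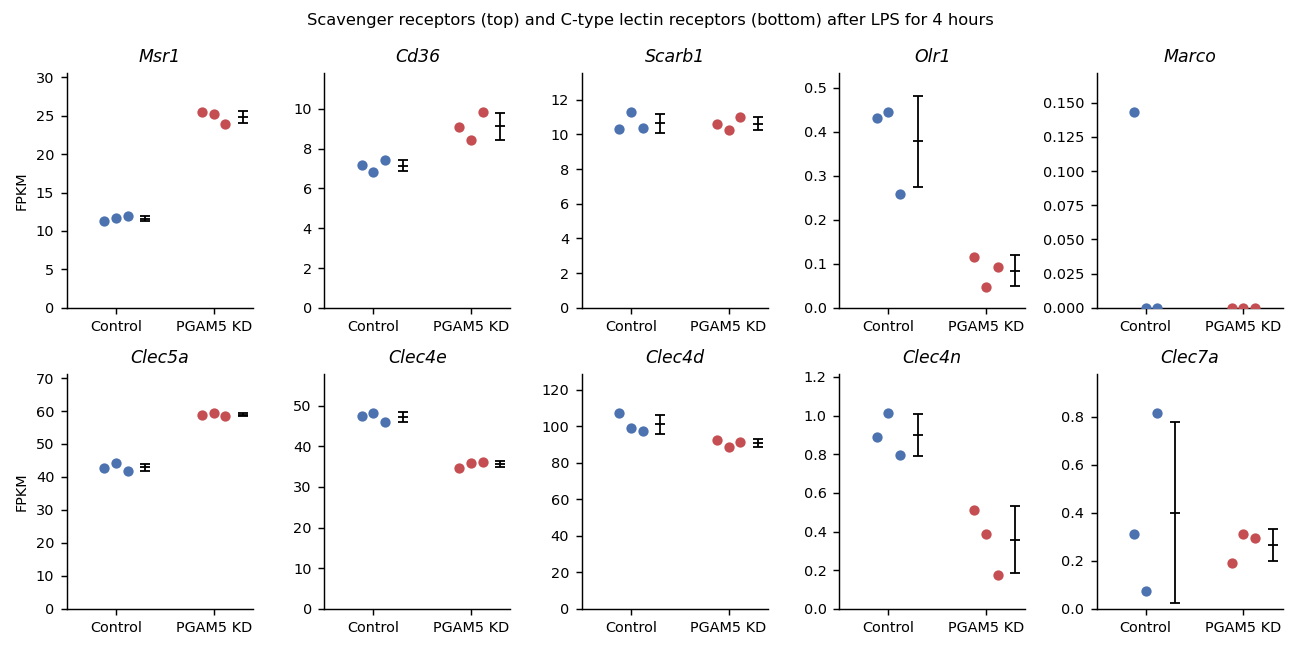
FPKM of each member (vertical axes, linear, each gene with its own scale) in the 3 control libraries (blue points) and the 3 PGAM5 KD libraries (red points), with the mean and SD as black bars where at least 2 libraries were above 0. Msr1, Cd36 and Clec5a sat higher in every PGAM5 KD library, Clec4e, Clec4d, Clec4n and Olr1 sat lower, and Scarb1, Clec7a and Marco overlapped.

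Msr1 encodes the class A macrophage scavenger receptor, a trimer that binds acetylated and oxidized lipoproteins and bacterial surface molecules. The gene (ENSMUSG00000025044) lies on chromosome 8 (minus strand, 39581685 to 39642673). Its level was 11.3, 11.7 and 11.9 FPKM in control and 25.4, 25.2 and 24.0 FPKM in PGAM5 KD libraries. Every PGAM5 KD library was therefore more than 12 FPKM above every control library. The mean rose from 11.6 ± 0.315 to 24.9 ± 0.793 FPKM (SD, n = 3), a ratio of 2.14, and each library held from 1298 to 3707 fragments of the gene. On the log2 scale this was 1.04 (95% confidence interval 0.93 to 1.14, limma adjusted p = 2.05e-05). An exact two-sided permutation test over libraries gave p = 0.1, which is the smallest that 3 libraries against 3 allow. Cd36, Clec5a, Clec4e, Clec4d, Clec4n and Olr1 gave the same p = 0.1 in this permutation test, so no member could pass 0.05 in it. The change of Msr1 was larger in size than those of 98.5% of the genes tested.

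Cd36 encodes a scavenger receptor of oxidized lipoproteins and a transporter of long-chain fatty acids. It lies on chromosome 5 (minus strand, 17781690 to 17888801, ENSMUSG00000002944). It had 7.18, 6.83 and 7.40 FPKM in control and 9.07, 8.45 and 9.82 FPKM in PGAM5 KD libraries. The groups were separate, although the gap of about 1 FPKM between them was smaller than the range of the PGAM5 KD libraries. The mean rose from 7.14 ± 0.288 to 9.12 ± 0.687 FPKM (SD, n = 3), with a log2 fold change of 0.31 (95% confidence interval 0.16 to 0.47, limma adjusted p = 0.0119). The ratio of Msr1 to Cd36 was 1.57, 1.71 and 1.60 in control and 2.80, 2.98 and 2.44 in PGAM5 KD libraries, with no overlap.

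Scarb1 is a relative of Cd36 and encodes the receptor that exchanges cholesterol with high-density lipoprotein. It lies on chromosome 5 (minus strand, 125277087 to 125341094, ENSMUSG00000037936). Its libraries gave 10.3, 11.3 and 10.4 FPKM in control and 10.6, 10.3 and 11.0 FPKM in PGAM5 KD cells, and the groups overlapped. The log2 fold change was -0.0040, with a 95% confidence interval of -0.13 to 0.12 (limma adjusted p = 0.963, and p = 0.9 in the exact two-sided permutation test). The ratio of Msr1 to Scarb1, which is free of the depth and scaling of a library, was 1.09 ± 0.0552 in control and 2.35 ± 0.145 in PGAM5 KD cells (SD, n = 3).

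**Figure D2:**
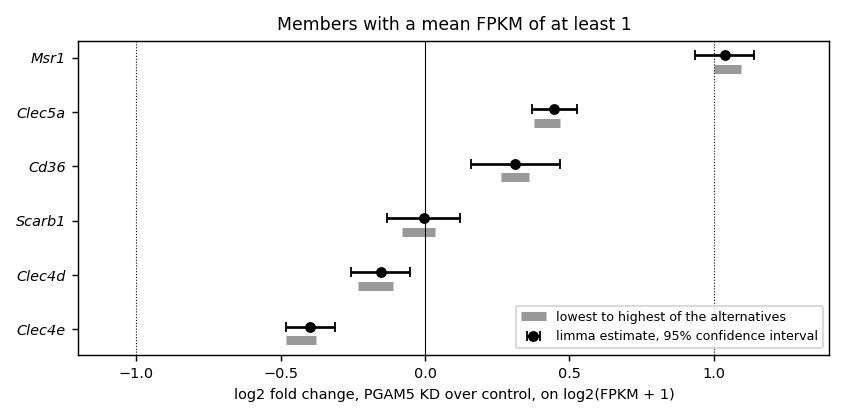
Log2 fold change of PGAM5 KD over control on log2(FPKM + 1) (horizontal axis) for the 6 members with a mean of at least 1 FPKM. Points with bars give the limma estimate and its 95% confidence interval, grey bars the range over the 17 alternative settings, and dotted lines mark 1 and -1. Scarb1 lay at 0 and Msr1 at 1.04, with Clec5a and Cd36 above 0 and Clec4d and Clec4e below it.

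Clec5a encodes a lectin-like receptor of myeloid cells that signals through the adaptor encoded by Tyrobp. The gene (ENSMUSG00000029915) lies on chromosome 6 (minus strand, 40574894 to 40585821). It had 42.7, 44.2 and 41.9 FPKM in control and 58.8, 59.3 and 58.6 FPKM in PGAM5 KD libraries. The spread of the PGAM5 KD libraries was under 1 FPKM, and all of them were well above the control libraries. The mean rose from 42.9 ± 1.15 to 58.9 ± 0.378 FPKM (SD, n = 3), with a log2 fold change of 0.45 (95% confidence interval 0.37 to 0.53, limma adjusted p = 0.000167).

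Clec4e encodes Mincle, which binds mycobacterial cord factor and other glycolipids and signals through the adaptor encoded by Fcer1g. It lies on chromosome 6 (minus strand, 123281789 to 123289870, ENSMUSG00000030142). It had 47.6, 48.2 and 45.9 FPKM in control and 34.7, 36.0 and 36.2 FPKM in PGAM5 KD libraries. Thus it moved opposite to Clec5a, with no overlap between the groups. The mean fell from 47.2 ± 1.15 to 35.6 ± 0.801 FPKM (SD, n = 3), with a log2 fold change of -0.40 (95% confidence interval -0.48 to -0.31, limma adjusted p = 0.000359). The ratio of Clec5a to Clec4e was 0.898, 0.917 and 0.912 in control and 1.69, 1.65 and 1.62 in PGAM5 KD libraries, so that their order was exchanged in every library.

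Clec4d encodes MCL, a lectin that pairs with Mincle at the cell surface. It lies on chromosome 6 (plus strand, 123262111 to 123275265, ENSMUSG00000030144). It had 107, 99.1 and 97.3 FPKM in control and 92.6, 88.5 and 91.2 FPKM in PGAM5 KD libraries. All PGAM5 KD libraries were below the control libraries, by a margin smaller than the range within control cells. The log2 fold change of -0.15 (95% confidence interval -0.26 to -0.05) had a limma adjusted p = 0.0356. Leaving out any library other than control replicate 3 ended this call, with adjusted p-values from 0.0508 to 0.107, and over all alternatives the adjusted p ranged from 0.00911 to 0.107. With TPM the estimate was -0.23. The ratio of Clec4d to Clec4e was 2.14 ± 0.0993 in control and 2.55 ± 0.108 in PGAM5 KD cells (SD, n = 3), without overlap.

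Clec4n, Clec4d and Clec4e lie side by side within 60.0 kb of chromosome 6, and no other protein-coding gene of the annotation lies among them. Clec4d and Clec4e point toward each other. Olr1 and Clec7a lie within 45.6 kb further along the same chromosome, again with no other protein-coding gene between them, so that 6 of the 10 members, Clec5a included, are on chromosome 6. None of the members shared at least 85% identity over 200 bases with a transcript of another gene, and none had exons that overlap those of another gene.

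The bases just before the start sites of the 3 C-type lectin genes with the highest levels, and of Olr1, are given here because these genes moved in different directions in the same cells. RefSeq (GRCm38.p6) gave a promoter for 7 of the 10 members. Each sequence is the 250 bases before the start site on the strand of the gene, at chr6:40585806-40586055 for Clec5a, chr6:123289872-123290121 for Clec4e, chr6:123261857-123262106 for Clec4d and chr6:129507166-129507415 for Olr1. Capitals mark matches on either strand to the motifs of PU.1 (GAGGAAG), AP-1 (TGANTCA), C/EBP (TTGCNNAA), the interferon-stimulated response element, the E-box (CACGTG), CRE (TGACGTCA) and the TATA box (TATAAA), and to the NF-κB motif.
Clec5a: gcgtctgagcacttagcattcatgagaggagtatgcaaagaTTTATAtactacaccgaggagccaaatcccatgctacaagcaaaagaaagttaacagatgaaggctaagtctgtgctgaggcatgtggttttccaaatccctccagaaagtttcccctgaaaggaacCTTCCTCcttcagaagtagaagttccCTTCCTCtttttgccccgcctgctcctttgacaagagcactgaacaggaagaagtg
Clec4e: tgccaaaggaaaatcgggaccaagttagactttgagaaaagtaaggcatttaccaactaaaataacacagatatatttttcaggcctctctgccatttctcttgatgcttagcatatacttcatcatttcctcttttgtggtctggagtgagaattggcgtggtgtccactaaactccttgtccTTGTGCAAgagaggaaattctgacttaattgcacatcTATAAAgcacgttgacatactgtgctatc
Clec4d: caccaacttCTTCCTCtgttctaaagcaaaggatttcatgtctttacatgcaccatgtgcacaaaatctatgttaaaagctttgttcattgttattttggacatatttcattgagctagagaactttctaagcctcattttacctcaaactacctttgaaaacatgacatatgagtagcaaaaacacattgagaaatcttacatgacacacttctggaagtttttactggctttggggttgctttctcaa
Olr1: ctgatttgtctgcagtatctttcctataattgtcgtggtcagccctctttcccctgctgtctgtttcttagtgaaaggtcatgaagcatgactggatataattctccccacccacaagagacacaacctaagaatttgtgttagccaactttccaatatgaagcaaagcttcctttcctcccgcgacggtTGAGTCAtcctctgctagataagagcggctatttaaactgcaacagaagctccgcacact
Clec5a, which was higher in PGAM5 KD cells, held 2 matches to the PU.1 motif on the opposite strand, from bases -82 to -76 and from -56 to -50, and a TATA match on that strand from -209 to -204. Clec4e held a TATA match from -29 to -24 and a C/EBP match on the opposite strand from -66 to -59. Clec4d held 1 PU.1 match, also on the opposite strand, from -241 to -235. In Olr1 the AP-1 match was at -60 to -54, where both strands fit the motif. Among 32851 promoters of the same length, 10.6% held the PU.1 motif, 12.4% the TATA box, 9.56% the C/EBP motif and 6.75% the AP-1 motif. The other motifs were in 7.25% (NF-κB), 6.02% (E-box), 2.98% (interferon-stimulated response element) and 1.55% (CRE) of promoters, and none of these 4 had a match in the sequences shown. Of the promoters not shown, those of Cd36, which was higher in PGAM5 KD cells, and of Clec7a held no match to any motif. That of Marco held a PU.1 match from -146 to -140. A link between these matches and the direction of change was not tested.

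Olr1 and Clec4n had few fragments, and both were lower in every PGAM5 KD library. The share of genes with so few fragments that are lower in this way was not counted. The 22.9% given above covers only genes with a mean of at least 1 FPKM. Olr1 encodes a receptor of oxidized low-density lipoprotein with a C-type lectin fold, on chromosome 6 (minus strand, 129485244 to 129507165, ENSMUSG00000030162). It had 28, 32 and 18 fragments in control and 9, 3 and 8 fragments in PGAM5 KD libraries, which is 0.432, 0.444 and 0.258 against 0.115, 0.0462 and 0.0918 FPKM. Without a filter on low values the difference on log2(FPKM + 1) was -0.34 (limma adjusted p = 0.0282), where 6.09% of genes were lower. In limma's voom on the fragments themselves it was -2.09 (standard error 0.67, limma adjusted p = 0.0222), where 12.8% of genes were lower. This fit of genes with at least 10 fragments summed over all libraries, which Olr1 reaches in either group alone, was chosen after seeing the data, and it placed Olr1 beyond a log2 fold change of -1 as well, as 1.53% of its genes were. Clec4n encodes a receptor of fungal mannans, on chromosome 6 (plus strand, 123229843 to 123247021, ENSMUSG00000023349). It had 23, 29 and 22 fragments in control and 16, 10 and 6 fragments in PGAM5 KD libraries, or 0.892, 1.01 and 0.794 against 0.513, 0.388 and 0.173 FPKM. The difference passed the threshold without a filter, at -0.49 (limma adjusted p = 0.0482), and not with voom, at -1.46 (standard error 0.59, limma adjusted p = 0.0735).

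Clec7a and Marco gave no difference that could be measured in these libraries. Clec7a encodes a receptor of fungal beta-glucan, on chromosome 6 (minus strand, 129461591 to 129472779, ENSMUSG00000079293), and GENCODE M21 lists it as a polymorphic pseudogene. It had 15, 4 and 42 fragments in control and 11, 15 and 19 fragments in PGAM5 KD libraries. The control libraries alone spanned the whole range of the PGAM5 KD libraries. The voom estimate was -0.06 with a standard error of 0.69 (limma adjusted p = 0.964). Marco encodes another class A scavenger receptor for bacteria, on chromosome 1 (minus strand, 120474538 to 120505024, ENSMUSG00000026390). It had 5 fragments in control replicate 1 and 0 in the other libraries, where a count of 0 allows at most 3 fragments, or 0.0639 to 0.0858 FPKM over these libraries by counting error alone.

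The FPKM of the 10 members summed to 228, 223 and 217 in control and to 232, 228 and 231 in PGAM5 KD libraries. The sums were separate by less than 1 FPKM. As a percentage of all FPKM of a library this was 0.0730 ± 0.0018 in control and 0.0717 ± 0.0013 in PGAM5 KD cells (SD, n = 3), with overlapping libraries. The sum of the 5 scavenger receptors was 29.8 ± 0.462 FPKM in control and 44.7 ± 0.666 FPKM after PGAM5 KD (SD, n = 3), without overlap. Msr1 made up most of this rise, from 11.6 to 24.9 FPKM, and Cd36 added less, while Scarb1 overlapped and Olr1 was lower. The sum of the 5 C-type lectin receptors was 193 ± 5.96 FPKM in control and 186 ± 1.27 FPKM after PGAM5 KD (SD, n = 3), with overlap. Msr1 made up 5.22% of the summed FPKM in control and 10.8% in PGAM5 KD cells, and Clec5a 19.3% and 25.5%. Clec4e fell from 21.2% to 15.5% and Clec4d from 45.5% to 39.4%. For these 4 shares the groups did not overlap, which largely repeats the FPKM of these genes, as the sums were nearly equal.

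**Figure D3:**
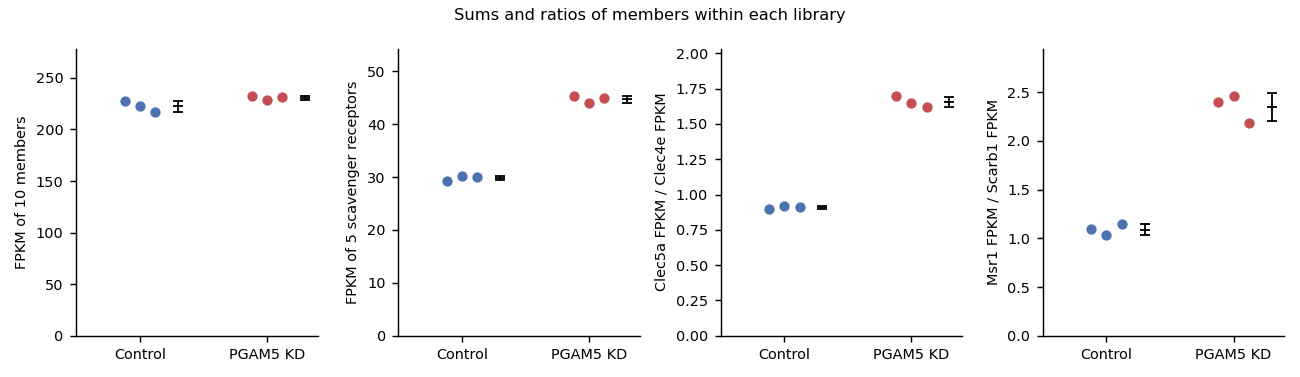
Summed FPKM of all 10 members and of the 5 scavenger receptors, and the ratios of Clec5a to Clec4e and of Msr1 to Scarb1, in each control (blue) and PGAM5 KD (red) library, with the mean and SD in black and axes that start at 0. The sum of all members lay between 217 and 232 in all libraries, and the ratio of Clec5a to Clec4e was below 1 in each control library and above 1.6 in each PGAM5 KD library.

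The same comparison was made for 50 other scavenger and C-type lectin receptor genes. Of these, 37 were below a mean of 1 FPKM, 15 of them at 0 in every library, and 13 were tested. In limma 2 of them were higher and 6 lower in PGAM5 KD cells, beside 16.8% higher and 14.9% lower among all genes tested. With TPM 1 was higher and 8 were lower, beside 10.3% and 21.7% of all genes. The median log2 fold change of the 13 was -0.20 against 0.013 for all genes tested. Clec4a1 and Clec4a2, lectin receptors from the same part of chromosome 6 as Clec4d and Clec4e, moved in opposite directions. Clec4a1 had 3.43, 3.75 and 3.62 FPKM in control and 6.78, 6.04 and 6.87 FPKM in PGAM5 KD libraries (log2 fold change 0.72, standard error 0.07, limma adjusted p = 0.000457). Clec4a2, whose product carries an inhibitory motif, had 5.40, 6.62 and 4.94 FPKM in control and 2.74, 2.58 and 2.42 FPKM in PGAM5 KD libraries (log2 fold change -0.89, standard error 0.10, limma adjusted p = 0.00108). Clec4a2 resembles Clec4b1 and Clec4a4, but neither reached a mean of 0.05 FPKM. Lrp1, a large endocytic receptor for many ligands, fell from 46.9 ± 1.10 to 36.9 ± 0.981 FPKM (SD, n = 3; log2 fold change -0.34, limma adjusted p = 0.000798). Cd68, a lysosomal scavenger receptor used also as a macrophage marker, had the highest level of the list and fell from 468 ± 4.67 to 406 ± 1.99 FPKM (SD, n = 3; log2 fold change -0.20, limma adjusted p = 0.0011, and -0.32 with quantile normalization). Colec12, a collectin that acts as a scavenger receptor, had 61.5, 58.7 and 60.9 FPKM in control and 55.4, 49.7 and 51.4 FPKM in PGAM5 KD libraries (log2 fold change -0.21, limma adjusted p = 0.0159), and its transcript shares stretches of up to 420 bases with 372 other genes.

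Some calls in this list were lost in part of the alternatives. Cxcl16, a membrane chemokine that also binds oxidized lipoprotein, changed by 0.27 on the log2 scale (limma adjusted p = 0.021), which was no longer past the threshold in 6 of 17 alternatives (adjusted p from 0.00998 to 0.0669), among them those without control replicate 2 and without PGAM5 KD replicate 1 or 2, and its exons overlap those of Zmynd15 on the opposite strand. Clec12a, an inhibitory lectin receptor, had -0.24 (limma adjusted p = 0.0273), lost in 6 of 17 alternatives (adjusted p from 0.00262 to 0.0821), among them those without control replicate 2 or 3 and without PGAM5 KD replicate 1 or 2. For Scarb2, a lysosomal membrane protein, the estimate of -0.21 (limma adjusted p = 0.0484) was lost in 10 of 17 (adjusted p from 0.0133 to 0.134), among them those without any single library other than control replicate 3. The call of Colec12 ended without control replicate 1, control replicate 3 or PGAM5 KD replicate 3, with adjusted p-values of at most 0.0539. Cd72, an inhibitory receptor of B cells and macrophages, had 46.3 ± 0.717 and 44.4 ± 1.39 FPKM (SD, n = 3) and was not past the threshold (log2 fold change -0.06, limma adjusted p = 0.249), although quantile normalization and TPM placed it just past it, with -0.11 and -0.14. Its exons overlap those of Tesk1.

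All 26 genes of a list of receptor signaling were tested, and 7 were higher, 6 lower and 13 not past the threshold in PGAM5 KD cells, beside 16.8% higher and 14.9% lower among all genes. With TPM 6 were higher and 8 lower, beside 10.3% and 21.7% of all genes. The median log2 fold change was -0.026. The adaptor genes of the lectin receptors had high and overlapping levels. Fcer1g had 163 ± 6.79 FPKM in control and 163 ± 6.42 FPKM after PGAM5 KD (SD, n = 3), with a 95% confidence interval of the log2 fold change of -0.10 to 0.10, and Tyrobp had 212 ± 8.27 and 210.3 ± 8.17 FPKM (SD, n = 3), with an interval of -0.11 to 0.09. Syk, the kinase recruited by these adaptors, had 22.8 ± 0.91 FPKM in control and 20.3 ± 0.227 FPKM after PGAM5 KD (SD, n = 3; log2 fold change -0.16, limma adjusted p = 0.0302). This call was lost with the replicate block (adjusted p = 0.059) and without any single library other than control replicate 2, with adjusted p-values of at most 0.0863, and with TPM the estimate was -0.24. In the complex downstream of Syk, Card9 rose by 0.27 and Bcl10 by 0.26 on the log2 scale (limma adjusted p = 0.008 and 0.0127), while Malt1 fell by 0.28 (limma adjusted p = 0.0232), a call lost in 5 of 17 alternatives (adjusted p from 3.95e-05 to 0.0734), among them those without control replicate 2 or 3 and without PGAM5 KD replicate 3. Syk, Card9, Bcl10 and Lyn, the last given below, fall outside the rule for naming genes of this list and were named after their values were seen.

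Nfatc1, a transcription factor of the calcium pathway that also follows these adaptors, had the largest change of the list. It had 60.6, 59.4 and 62.4 FPKM in control and 27.6, 29.2 and 28.1 FPKM in PGAM5 KD libraries (log2 fold change -1.08, standard error 0.04, limma adjusted p = 1.32e-05). The Src family kinases, which phosphorylate receptor and adaptor tails, moved in both directions. Fyn rose by 0.49 (limma adjusted p = 0.00376), whereas Fgr fell by 0.54 and Src by 0.68 (limma adjusted p = 0.000418 and 0.00924). Lyn, at a higher level than these, rose from a mean of 55.2 to 64.7 FPKM (log2 fold change 0.23, limma adjusted p = 0.00255). Ptpn6, a phosphatase that opposes these kinases, rose from 127 ± 3.23 to 149 ± 3.40 FPKM (SD, n = 3; log2 fold change 0.23, limma adjusted p = 0.00258). With quantile normalization and TPM this was 0.14 and 0.15, still past the threshold. Its exons overlap those of the antisense gene Gm20531, which had a mean of 0.0707 FPKM.

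**Figure D4:**
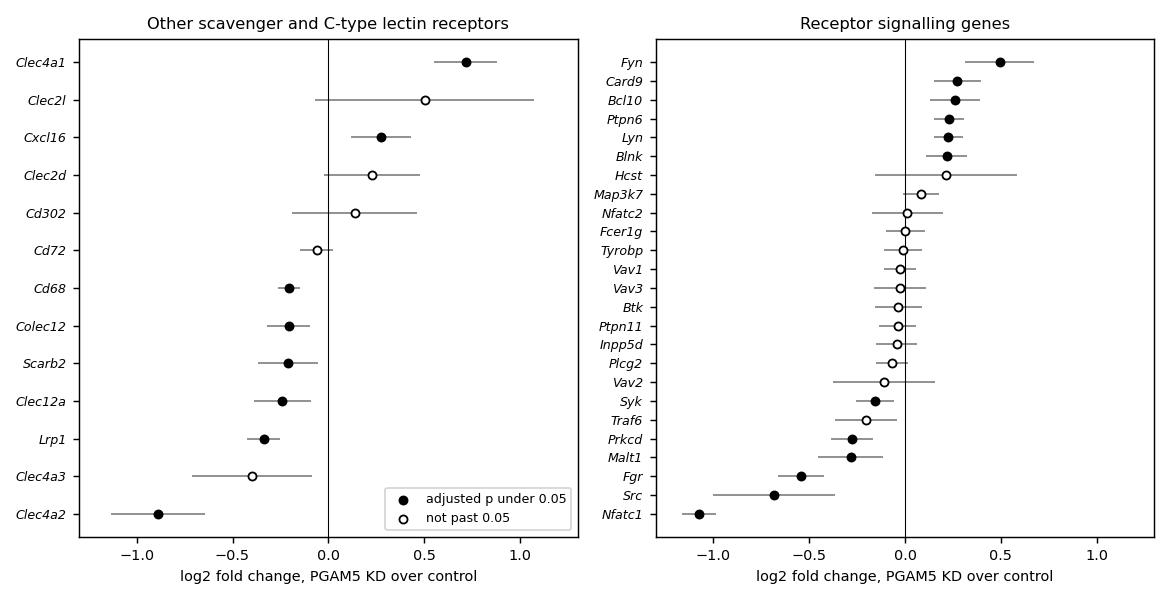
Log2 fold change of PGAM5 KD over control on log2(FPKM + 1) with its 95% confidence interval for the 13 other receptor genes and for receptor signaling genes. Filled points passed the limma threshold and open points did not. Clec4a1 and Fyn lay farthest to the right among filled points, and Clec4a2 and Nfatc1 farthest to the left.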

How the data were processed

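RNA-seq of 6 libraries was used, 3 from control and 3 from PGAM5 KD iBMDMs after LPS, grouped by their labels. The authors deposited FPKM per Ensembl gene, 1 table per library. The submitters' processing notes name HISAT2 2.0.5, featureCounts 1.5.0-p3 and mm10, while the annotation and the strand setting are not given in the sources used here, so overlapping genes are uncertain. GENCODE M21 held 54495 of the 54532 identifiers. Multiplied by exon length, 96.8% to 97.1% of the values under 1000 fragments came out whole (tolerance 0.01), from which depths of 18165596, 20178809 and 19523338 fragments in control and 21977825, 18163462 and 24388914 fragments in PGAM5 KD libraries were recovered. A fold change on log2(FPKM + 1) understates that of genes with low FPKM.

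Genes with a mean of at least 1 FPKM were compared on log2(FPKM + 1) by limma 3.58.1 (R 4.3.3), using moderated statistics with a trend on the mean. P-values were two-sided and adjusted over all genes tested by the Benjamini-Hochberg method. Calls required an adjusted p-value below 0.05, and a second rule, from the methods of the study, also an absolute log2 fold change above 1. The fit was tested on simulated data. An exact permutation test over libraries was added for members, and similar transcripts were searched with blastn 2.17.0. Python 3.11.15 and matplotlib 3.10.9 were used for tables and figures. Alternatives were quantile normalization, TPM, median centring, a pseudocount of 0.1, no filter, a mean of at least 5 FPKM, no trend, array weights, a replicate block, voom on recovered fragments (for genes of at least 10 fragments summed over the 6 libraries an addition made after seeing the data), and leaving out each library. Members and lists were chosen with earlier results of these data known. Named genes were the members, Pgam5, marker genes and, in each of the 2 other lists, the 6 called genes with the largest change and the 3 with the highest level, together with genes between neighbouring members and those that overlap or resemble a named gene. Of these lists, 1 signaling gene that the rule would name and 1 lymphocyte marker are not reported here by name, and the signaling gene is not drawn.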

Additional observations from a re-analysis of the deposited data

How the results depend on the processing

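Msr1, Clec5a, Cd36 and Clec4e kept their direction and an adjusted p-value under 0.05 in limma in all 17 alternatives, and Scarb1 stayed short of the threshold, with log2 fold changes from 1.00 to 1.09, 0.38 to 0.47, 0.26 to 0.36, -0.48 to -0.38 and -0.08 to 0.034. Clec4d was the exception. Its estimate of -0.154 had adjusted p-values of 0.0748 without a filter and 0.0761 without a trend, and leaving out 1 library gave -0.181 to -0.112. The number of members lower, reported as 2, was 1 without a trend and 1 to 2 when leaving out 1 library, and 3 without a filter (Clec4e, Clec4n and Olr1) and with voom on genes of at least 10 fragments (Clec4d, Clec4e and Olr1). In that voom fit 1 member, Olr1, was also lower by more than 1 on the log2 scale. The number of other receptors higher, reported as 2, was 1 with TPM, without a filter and with the replicate block, 1 to 2 when leaving out 1 library, and 3 without a trend. That of other receptors lower, reported as 6, ranged from 4 without a filter or 1 library to 8 with TPM. Receptor signaling genes were higher in 6 to 7 cases and lower in 4 to 8 over the alternatives, against 7 and 6. Same-numbered libraries did not deviate together across genes (correlations of -0.02, 0.016 and -0.052 for replicates 1, 2 and 3). No library correlated best with its own number, so the replicate number was not taken as a pairing. The replicate block lowered the genes past the threshold from 3346 to 2652 and ended no call of a member. Depth limits the values of Clec4n, Clec7a, Olr1 and Marco, each with at most 42 fragments in a library. For Clec7a the control libraries also differed widely, from 4 to 42 fragments.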
